A study of Mus musculus with 20 samples.

Results

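Shared expression was described in 14 single podocytes, the epithelial cells that cover the outside of the glomerular capillaries with interlocking foot processes. The 14 cells were those of 20 sequenced cells in which Gata3, a transcription factor gene known from mesangial cells, lay below 100 RPKM and Pecam1, an endothelial adhesion molecule, lay below 1 RPKM. RPKM is the number of reads per 1000 bases of a gene and per 1000000 reads of the library. The shared genes, called core genes here, were those at 1 RPKM or more in each of the 14 cells, and they numbered 292 of 39179 genes in the table, or 0.745%. Of the 10123 genes that reached 1 RPKM in at least 1 of the 14 cells they were 2.88%. The count depended on the rule, with 972 genes above 0 RPKM, 187 at 5 RPKM and 164 at 10 RPKM in all 14 cells, and 540 genes at 1 RPKM in at least 13 of them.

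All cells came from the glomeruli of 1 wild-type male C57BL/6 mouse aged 8 weeks, without any treatment. The glomeruli were collected with magnetic beads and taken apart with enzymes. Single cells were then caught in separate wells of a Fluidigm C1 instrument, which lysed them and made cDNA from each. There was 1 group and 1 animal, so no test was made, and every SD below is a spread between cells of that animal (n = 14 cells). Cells are numbered from 1 to 20 in the order of their records.

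Podocytes are joined to each other by the slit diaphragm, a cell junction built around nephrin (Nphs1), and they rest on a basement membrane whose collagen IV they help to make. Their foot processes are held by actin filaments with synaptopodin (Synpo) and carry podocalyxin (Podxl), a negatively charged sialomucin. They do not normally divide in the adult kidney and express the transcription factor gene Wt1 and the cyclin-dependent kinase inhibitor gene Cdkn1c.

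The cells were chosen by their measured Gata3 and Pecam1 levels, and the core genes by their own levels in these cells, so these levels are given as a description. Gata3 ranged from 0 to 1.62 RPKM over the 14 cells, with a median of 0.357 RPKM, and Pecam1 from 0 to 0.786 RPKM, with a median of 0.118 RPKM. Cell 15 had the fewest reads recovered from the values, 4205562, and cell 17 the most, 10448491, around a median of 6815090.5. A single read in a gene of 2000 bases was thus worth 0.048 to 0.119 RPKM, and 3 reads 0.144 to 0.357 RPKM. Between 2371 genes (cell 12) and 4082 genes (cell 2) reached 1 RPKM in a cell, with a median of 3033.5 genes. Cell 12 had the fewest: without it, 352 genes were shared by the remaining cells, while leaving out any other single cell gave 295 to 335 shared genes.

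The cells carried the podocyte markers, and few markers of other cell types. All 5 podocyte markers were present in all 14 cells, with a summed level of 3525 to 6994 RPKM and a median of 4813 RPKM. Gata3 and Pecam1, which chose the cells, are left out of the counts that follow. Of 13 mesangial and mural markers, 12 were found in no cell, and the exception was Pdgfrb with 84.4 RPKM in cell 13. Of 15 endothelial markers, 13 were found in no cell. The exceptions were Ehd3 at 1.15 RPKM in cell 1 and Cldn5, which reached 327 RPKM in cell 12 and was found in 5 cells. Of 8 markers of the parietal epithelium, the neighbouring epithelium of the glomerular capsule, 4 were found in no cell. The others were Krt7, found in 7 cells and up to 267 RPKM in cell 17, Aldh1a2, found in 2 cells and up to 315 RPKM in cell 13, Pax8 at 382 RPKM in cell 2, and Cldn1 at 2.63 RPKM in cell 18. Markers of the proximal tubule, of immune cells and of red cells were found in no cell, and of 7 distal markers only Calb1 was found, at 1.62 RPKM in cell 2. Without cells 2, 12 and 13, in which Pax8, Cldn5, and Pdgfrb with Aldh1a2 were found, 375 genes were shared. Other cells with Krt7 or Cldn5 were kept in that count.

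Nphs1 (ENSMUSG00000006649, chr7:30458315-30487223 on GRCm38) had 66.9 RPKM in cell 18, a median of 349 RPKM and 1639 RPKM in cell 17. Its mean was 541 ± 547 RPKM (SD, n = 14 cells). Cells 3, 17 and 20 had 1287, 1639 and 1596 RPKM, and every other cell lay at 534 RPKM or less. Wt1 (ENSMUSG00000016458, chr2:105126529-105173616) was more even, with 187 RPKM in cell 18, a median of 960 RPKM and 1729 RPKM in cell 19. Its mean was 999.6 ± 448 RPKM (SD, n = 14 cells). Podxl (ENSMUSG00000025608, chr6:31519488-31563981) lay between 357 RPKM in cell 3 and 2937 RPKM in cell 4, with a median of 1040 RPKM. Synpo had 113 RPKM in cell 15, a median of 363 RPKM and 1297 RPKM in cell 9. Cdkn1c (ENSMUSG00000037664, chr7:143458339-143461050) had the highest median of the 5 markers, 1726 RPKM, with 356 RPKM in cell 19 at the low end and 3969 RPKM in cell 15 at the high end. Of the 50-base windows of Cdkn1c, 26.6% also occur in another annotated transcript. The 5 markers were not low in the same cell: cell 18 was lowest for Nphs1 and Wt1, cell 3 for Podxl, cell 15 for Synpo and cell 19 for Cdkn1c.

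**Figure D1:**
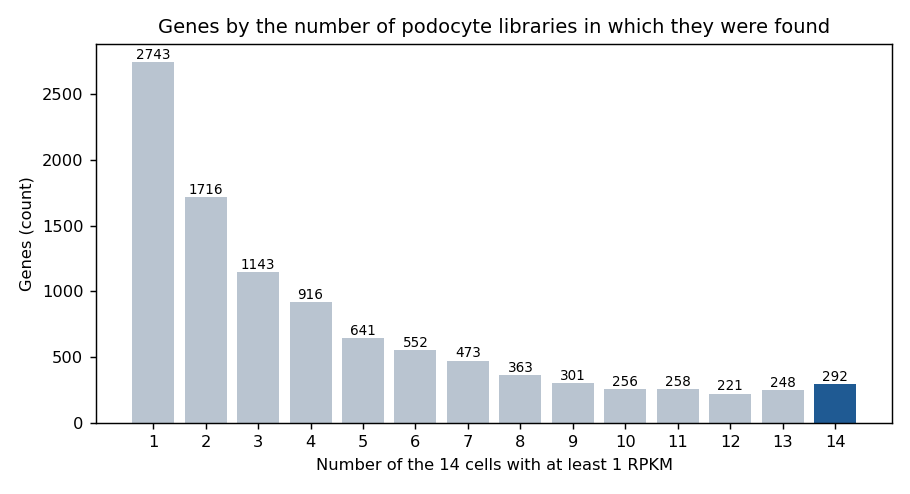
Number of genes (y axis, count) found at 1 RPKM or more in exactly 1 to 14 of the 14 podocytes (x axis). The count is 2743 genes for a single cell, 221 for 12 cells, 248 for 13 and 292 for all 14 cells.

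Most genes were found in few of the cells. Exactly 1 cell held 2743 genes, 248 genes were found in 13 cells and 292 in all 14, as the plot of genes by number of cells shows. Genes found in most or all cells had higher levels where found than genes of few cells. The median RPKM in the cells where a gene was found was 8.93 for genes of 1 cell, 27.98 for genes of 7 cells, 95.4 for genes of 13 cells and 224.8 for core genes. Of the core genes, 47 had a median of at least 1000 RPKM, 152 of 100 to under 1000 RPKM, 74 of 10 to under 100 RPKM and 19 under 10 RPKM. The core took 37.9% (cell 13) to 51.4% (cell 12) of a cell's summed RPKM, with a median of 42.8%, and 34.6% to 49.5% of its reads. The 20 core genes of highest median held 54.1% of the core's summed RPKM on average. Of the 292 core genes, 265 were annotated as protein coding. The 261 named genes were sorted by textbook roles after the core was known, 4 of them without a role, and 31 predicted genes, pseudogenes and genes without a symbol were counted only, with a median level of 22.97 RPKM.

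The threshold cut through genes of high level. Just inside it, with the lowest minima, were Rbm26 (1.03 RPKM), Zdhhc21 (1.05 RPKM), Ermp1 (1.06 RPKM), Aff4 (1.08 RPKM), Hsd3b2 (1.09 RPKM), Vps50 (1.09 RPKM), Calr (1.11 RPKM), Cgnl1 (1.11 RPKM), Pura (1.12 RPKM) and Eif1 (1.12 RPKM). Their medians spanned 3.38 RPKM for Vps50 to 163 RPKM for Cgnl1. Just outside it, found in 13 cells and of highest median, was Ywhaz, a 14-3-3 protein gene, with a median of 2020 RPKM, 0.621 RPKM in cell 12 and no less than 559 RPKM in the 13 other cells. Next came the helicase gene Eif4a2 (median 1091 RPKM, 0.585 RPKM in cell 16) and the chaperone gene Hsp90ab1 (median 997 RPKM, 0.671 RPKM in cell 7). St3gal6, a sialyltransferase gene with a median of 649 RPKM, had no read in cell 18. Dynll1, Pdia6, Gpx4, Mrfap1, Ap2m1 and Vim completed the 10 such genes, with medians of 609 to 796 RPKM. Of the 248 genes found in 13 cells, 112 had a median of at least 100 RPKM, 55 had no read in the missing cell and 193 had reads there that came to less than 1 RPKM. The missing cell was cell 12 for 60 of the genes and cell 7 for 43, against 3 for cell 2.

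**Figure D2:**
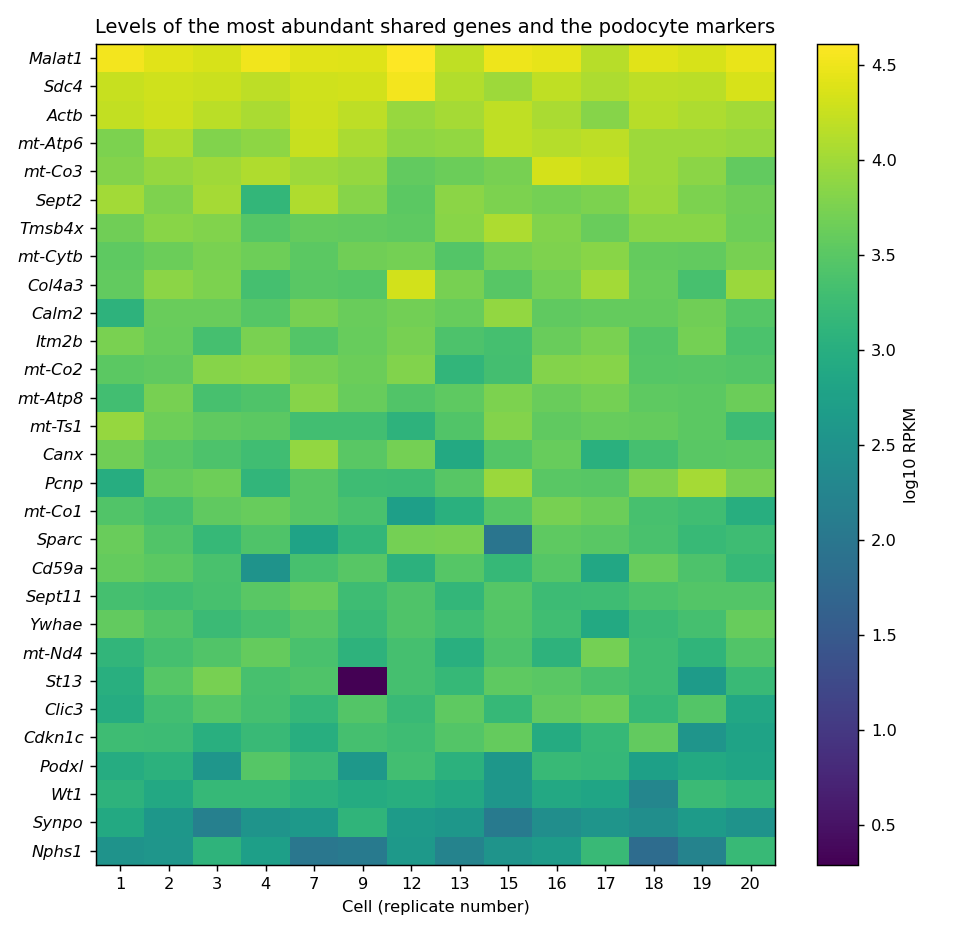
RPKM (colour, log10 scale) of 29 core genes (rows) in each of the 14 podocytes (columns, cell number), with the most abundant core genes and the 5 podocyte markers. Malat1, Sdc4 and Actb are at 6597 RPKM or more in every cell, while St13 has 1.95 RPKM in cell 9.

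The most abundant core RNA was the nuclear long noncoding RNA Malat1 (ENSMUSG00000092341, chr19:5795690-5802672), with 13822 RPKM in cell 17, a median of 26255 RPKM and 40971 RPKM in cell 12. The highest protein coding gene was Sdc4 (ENSMUSG00000017009, chr2:164424247-164443887), which encodes syndecan-4, a heparan sulfate proteoglycan of focal adhesions. Sdc4 had 9473 RPKM in cell 15, a median of 16776 RPKM and 34436 RPKM in cell 12, and its mean was 17796 ± 6028 RPKM (SD, n = 14 cells). Beta-actin (Actb) followed with 6597 RPKM in cell 17, a median of 13074 RPKM and 19067 RPKM in cell 7. These 3 genes were high in every cell, and their highest cell exceeded their lowest by 2.96-fold (Malat1), 3.64-fold (Sdc4) and 2.89-fold (Actb).

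RNAs of the mitochondrial genome, which encodes subunits of the respiratory chain and of ATP synthase, were the class with the highest typical level. Its 13 core genes had a median level of 2546 RPKM and made up 17.2% of the core's summed RPKM in the median cell. The ATP synthase subunit gene mt-Atp6 had 5778 RPKM in cell 1, a median of 9466 RPKM and 17501 RPKM in cell 7, and the cytochrome oxidase subunit gene mt-Co3 had a median of 8472 RPKM. The lowest was mt-Nd6, which is encoded on the other strand, at 3.13 RPKM in cell 7, a median of 265 RPKM and 1147 RPKM in cell 4. The cytochrome b gene mt-Cytb, with 2804 RPKM in cell 13, a median of 4667 RPKM and 6946 RPKM in cell 17, varied least of all 292 core genes. Most 50-base windows of mt-Atp6 (99.5%), mt-Co2 (100%), mt-Co3 (99.9%) and mt-Nd3 (98.0%) also occur in another annotated transcript, so their levels are uncertain, whereas mt-Cytb shared no window.

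**Figure D3:**
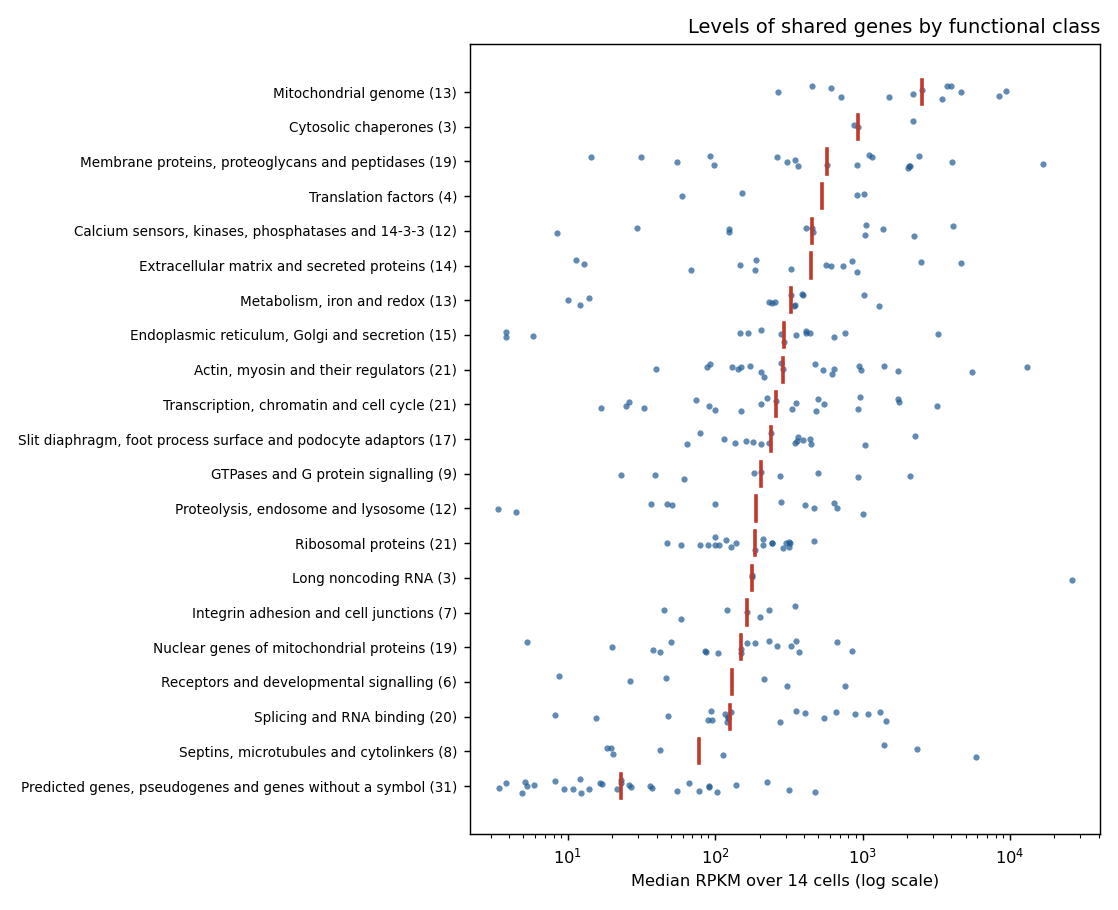
Median RPKM over the 14 podocytes (x axis, log scale) of each core gene (points), by functional class (rows, number of genes in parentheses), with the class median as a red line and the 4 genes without a role left out. Mitochondrial genome RNAs have a class median of 2546 RPKM, and predicted genes and pseudogenes have 22.97 RPKM.

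The slit diaphragm, foot process surface and podocyte adaptor class had 17 core genes, with a median level of 241 RPKM and a summed level of 5618 to 14787 RPKM per cell. After Podxl came Arhgap24, a GTPase activating protein for Rac1, with 27.3 RPKM in cell 7, a median of 447 RPKM and 1661 RPKM in cell 9. Thsd7a, known in humans as an autoantigen of membranous nephropathy, had 56.4 RPKM in cell 9, a median of 438 RPKM and 839 RPKM in cell 2. Schip1 had a median of 394.5 RPKM, but 90.4% of its windows occur in another annotated transcript. Clic5, which is found with ezrin and podocalyxin at the foot process, was never below 163 RPKM and had a median of 358 RPKM. The nephrin-binding adaptor gene Nck2 had a median of 241 RPKM, the polarity gene Mpp5 of 204.5 RPKM and the slit guidance receptor gene Robo2 of 180 RPKM. Under 10 RPKM in at least 1 cell were 4 genes of the class. Ptpro, a receptor tyrosine phosphatase of the podocyte, had 2.21 RPKM in cell 19, a median of 163 RPKM and 1133 RPKM in cell 20. Magi2, a scaffold protein gene of the slit diaphragm, had 1.68 RPKM in cell 17, a median of 136 RPKM and 387 RPKM in cell 19. The others were Sgip1 (4.91 RPKM in cell 4) and Kank1 (9.94 RPKM in cell 13).

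Of 44 measured genes of a list of kidney disease genes of the podocyte, 12 were core, 20 were found in some cells and 12 in none. Over all gene lists used here 139 of 932 measured genes were core, against 2.88% of genes found in any of the cells. Nothing particular to this list is read from its share. The core members were Nphs1, Synpo, Podxl, Wt1, Arhgap24, Plce1, Magi2, Kank1, Ptpro, Actn4, Myh9 and Col4a3. Across the 3 collagen IV chain genes of the mature glomerular basement membrane the levels were unequal. Col4a3 had 2148 RPKM in cell 4, a median of 4619 RPKM and 20582 RPKM in cell 12, with a mean of 6071 ± 4849.5 RPKM (SD, n = 14 cells). Col4a4 had a median of 55.6 RPKM and was found in 13 cells, and Col4a5 had a median of 53.98 RPKM and was found in 11 cells. RPKM are scaled by gene length, so the 3 levels can be set side by side as far as the lengths behind them hold. Myo1e, Itga3 and Fat1 were each found in 13 of the 14 cells and missed the core by 1 cell. Cd2ap, an adaptor of the slit diaphragm, reached the threshold in 12 cells and had a median of 52.2 RPKM, and Crb2 reached it in 9 cells. Trpc6, a calcium channel gene, was listed at 0 in all 14 cells, where 3 reads in a gene of 2000 bases are worth at most 0.357 RPKM.

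Genes of actin, myosin and their regulators numbered 21 in the core, with a median level of 288 RPKM and 11.9% of the core's summed RPKM in the median cell. After Actb the highest was Tmsb4x, whose product thymosin beta-4 binds actin monomers, with 2919 RPKM in cell 4, a median of 5514 RPKM and 11863 RPKM in cell 15. Aif1l had a median of 1729 RPKM, and Actr2, a subunit gene of the Arp2/3 complex that starts actin branches, of 1394 RPKM. The myosin light chain genes Myl12a (median 976 RPKM) and Myl6 (median 947 RPKM) lay close to each other, and the nonmuscle myosin heavy chain gene Myh9 had 128 RPKM in cell 20, a median of 477 RPKM and 1112 RPKM in cell 7. Actn4, which encodes the actin crosslinker alpha-actinin-4, was far less even, with 1.24 RPKM from 11 reads in cell 4, a median of 172 RPKM and 1367 RPKM in cell 17. In the list of myosins, tropomyosins and actin filament proteins, 10 of 42 measured genes were core, against 139 of 932 over all gene lists.

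Septins, which form filaments beneath the membrane, gave 2 of the 20 most abundant core genes. Sept2 had 1431 RPKM in cell 4, a median of 5917 RPKM and 12612 RPKM in cell 7, with 83.9% of its windows found in another annotated transcript. Sept11 (ENSMUSG00000058013, chr5:93093437-93176447), which shared no window, had 1427 RPKM in cell 13, a median of 2357 RPKM and 4075 RPKM in cell 7. Sept10 was lower and wider, with 8.18 RPKM in cell 12 and 561 RPKM in cell 15. Dpysl2, a microtubule-binding protein gene known from neurons, was even, with a median of 1406 RPKM and a range of 399 to 2116 RPKM.

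Membrane proteins, proteoglycans and peptidases formed a class of 19 core genes with a median level of 576 RPKM and 14.6% of the core's summed RPKM, of which Sdc4 was the highest. Itm2b, a transmembrane protein gene, had 2134 RPKM in cell 15, a median of 4064 RPKM and 5570 RPKM in cell 1. Cd59a, an inhibitor of the complement membrane attack complex, had a median of 2412 RPKM and at least 319 RPKM in every cell. The intracellular chloride channel protein gene Clic3 (median 2096 RPKM), the tetraspanin gene Cd81 (median 2041 RPKM) and 2 surface peptidase genes followed. Dpp4, which encodes dipeptidyl peptidase 4, had 193 RPKM in cell 15, a median of 2065 RPKM and 5875 RPKM in cell 12. Enpep, the aminopeptidase that cleaves angiotensin II, had 67.0 RPKM in cell 9, a median of 1112 RPKM and 2541 RPKM in cell 20. The class I histocompatibility genes H2-Q7 and H2-Q6 had medians of 576 and 362 RPKM, and share sequence with each other's family (28.5% and 34.97% of windows).

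Genes of the extracellular matrix and of secreted proteins numbered 14, with a median level of 446 RPKM. After Col4a3 came Sparc, a collagen-binding matrix protein gene, with 94.4 RPKM in cell 15, a median of 2506 RPKM and 5320 RPKM in cell 13. Selenop, the selenium carrier gene, had a median of 911 RPKM and 14.6 RPKM in cell 12, and Cst3, the gene of the protease inhibitor cystatin C, had a median of 848 RPKM. The tissue plasminogen activator gene Plat had 66.7 RPKM in cell 7, a median of 736 RPKM and 2407 RPKM in cell 4. Vegfa, the growth factor through which podocytes act on glomerular endothelium, was comparatively even, with 89.7 RPKM in cell 3, a median of 327 RPKM and 697 RPKM in cell 19.

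Regulators of transcription, chromatin and the cell cycle numbered 21 and had a median level of 258 RPKM. Pcnp, a nuclear protein gene with 38.5% of its windows shared, was highest with a median of 3194 RPKM. The stress-responsive transcription regulator gene Nupr1 had 614 RPKM in cell 9, a median of 1753 RPKM and 3952 RPKM in cell 7. Zbtb20, a zinc finger repressor gene, was among the wider, with 33.2 RPKM in cell 1, a median of 498 RPKM and 1735 RPKM in cell 18. Tcf21, a podocyte transcription factor gene outside the core and named after its values were seen, had a median of 444 RPKM and 0.404 RPKM in cell 12. In the list of transcription factors and coregulators 2 of 40 measured genes were core, 30 were found in some cells and 8 in none. Over all gene lists 139 of 932 measured genes were core.

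Receptors and developmental signals gave 6 core genes. Lgr4, a receptor for R-spondins, had 70.4 RPKM in cell 17, a median of 765 RPKM and 1808 RPKM in cell 20. The parathyroid hormone receptor gene Pth1r had a median of 213 RPKM, and Shisa3, an antagonist of Wnt and FGF signalling, of 305 RPKM. Fgfr1 and Notch2 were lower, with medians of 46.7 and 26.5 RPKM. Lowest of the 6 was the vomeronasal receptor gene Vmn2r55, with a median of 8.70 RPKM. Its level is uncertain, since 71.2% of its windows also occur in another annotated transcript. Calcium sensors, kinases, phosphatases and 14-3-3 genes numbered 12, led by the calmodulin gene Calm2, with 1201 RPKM in cell 1, a median of 4135 RPKM and 8010 RPKM in cell 15. The 14-3-3 gene Ywhae had 818 RPKM in cell 17 and a median of 2246 RPKM, while its paralogue Ywhaz missed the core in cell 12 alone. Among 9 core genes of GTPases and G protein signalling, the G protein subunit gene Gnb1 had a median of 2092 RPKM and Rab3b, a vesicle GTPase gene, of 924 RPKM, and neither was below 172 RPKM in any cell. The integrin gene Itgb1 led the 7 adhesion and junction genes with a median of 350 RPKM and 10.97 RPKM in cell 9, against 1126 RPKM in cell 4. Itgav, Cgnl1 and Jup each had a cell below 2 RPKM.

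The other classes hold mostly genes of general cell functions, by textbook role and not by comparison with other cell types. Ribosomal protein genes numbered 21, with a median level of 187 RPKM, led by Rps25 with 122 RPKM in cell 12, a median of 466 RPKM and 841 RPKM in cell 2. Most of them share sequence with other annotated transcripts, for example 72.8% of windows of Rps25, so their levels are uncertain. Nuclear genes of mitochondrial proteins numbered 19, with a median of 150 RPKM, far under the mitochondrial RNAs. Among them the cytochrome oxidase subunit gene Cox6a1 had 2.90 RPKM in cell 12, a median of 849 RPKM and 3502 RPKM in cell 16, and the ATP synthase gene Atp5b had 1.67 RPKM in cell 3, a median of 329 RPKM and 3339 RPKM in cell 4. Splicing and RNA binding genes numbered 20 with a median of 125 RPKM, led by Srsf2, a splicing factor gene, with 272 RPKM in cell 19, a median of 1446 RPKM and 3820 RPKM in cell 7. Of the windows of Srsf2, 35.2% also occur in another annotated transcript. Clk1, a kinase gene that acts on splicing factors, had 5.57 RPKM in cell 12, a median of 1307 RPKM and 4792 RPKM in cell 7. Proteins of the endoplasmic reticulum and Golgi gave 15 core genes, of which the folding chaperone gene Canx had 832 RPKM in cell 13, a median of 3235 RPKM and 8077 RPKM in cell 7. Proteolysis, endosome and lysosome gave 12, led by the ubiquitin gene Ubb with a median of 1002 RPKM and 61.0% of windows shared. Metabolism, iron and redox gave 13, led by the ferritin gene Fth1 with a median of 1295 RPKM and Sod1, the superoxide dismutase gene, with 1014 RPKM.

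Of 932 genes measured in 30 lists, 139 were core, and 153 core genes stood in no list. The mitochondrial genome list had 12 of 15 in the core, large ribosomal subunit proteins 9 of 33, small subunit proteins 6 of 27, membrane glycoproteins with tetraspanins 7 of 29, nuclear respiratory chain genes 10 of 46, and translocation and folding genes of the endoplasmic reticulum 7 of 34. At the other end were Golgi and vesicle coats with 0 of 33, all of which were found in some cells, immediate early and stress genes with 1 of 26 (12 of them in no cell), and heat shock proteins and cytosolic chaperones with 1 of 24. That list does not hold every core chaperone. The class of cytosolic chaperones, sorted after the core was known, had 3 core genes, St13, Cryab and Ptges3, with medians of 875 to 2200 RPKM. The background share is 0.745% of all genes and 2.88% of genes found in any of these cells, and the lists were made of well-known genes, so nothing particular to a list is read from its share.

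**Figure D4:**
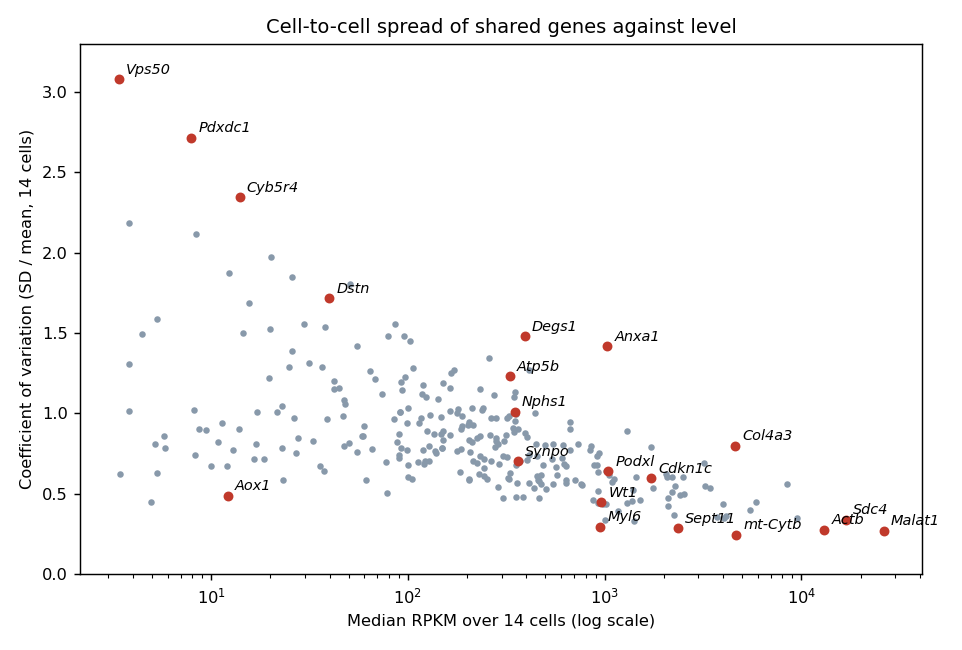
Coefficient of variation (y axis, SD over mean across 14 podocytes) of each core gene (points) against its median RPKM (x axis, log scale), with some genes named beside red points. The coefficient runs from 0.25 for mt-Cytb to 3.08 for Vps50, and genes of high median lie lower.

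The coefficient of variation (CV), the SD between cells over the mean, had a median of 0.787 over the 292 core genes. It was under 0.5 for 34 genes and over 1 for 73. The highest cell exceeded the lowest by a median of 36.3-fold, by less than 5-fold for 13 genes and by over 100-fold for 88. Lower CVs went with higher levels, with a Spearman correlation of -0.62 between median and CV across genes, which are not independent and share the same libraries. The most even genes were mt-Cytb (CV 0.25), Malat1 (0.27), Actb (0.28), Sept11 (0.29), Myl6 (0.30), Dpysl2 (0.33), Ubb (0.34), Sdc4 (0.34), Itm2b (0.35), mt-Atp6 (0.35), mt-Atp8 (0.35), Calm2 (0.36), Ywhae (0.37), Ifitm2 (0.40) and Tmsb4x (0.40). They mix cytoskeletal, signalling and membrane genes with mitochondrial RNAs, and include no ribosomal protein gene. By class, the median CV was lowest for the mitochondrial genome (0.509) and highest, among classes with a given role, for proteolysis, endosome and lysosome (0.990) and for nuclear genes of mitochondrial proteins (0.984).

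The 15 widest named genes, with predicted genes, pseudogenes and genes without a symbol left out, had medians of at most 86.4 RPKM. In 8 of them 1 cell exceeded 10 times the gene's median, and in 7 of them 2 to 5 cells did. Vps50 (ENSMUSG00000001376, chr6:3498382-3603531), an endosomal tethering complex gene, had a median of 3.38 RPKM, with 941 RPKM in cell 18 and 141 RPKM in cell 20. Pdxdc1 had a median of 7.91 RPKM, with 666 RPKM in cell 9 and 95.4 RPKM in cell 20. Cyb5r4, a cytochrome b5 reductase gene, had a median of 13.9 RPKM and 353 RPKM in cell 20. Alg6, a glucosyltransferase gene of N-glycosylation, had a median of 3.83 RPKM, with 195, 49.0 and 47.96 RPKM in cells 3, 4 and 2. Sik2, Dynlt1c, Zfp277, Laptm4a, Dstn, Pabpc1, Timm17b, Calm3, Vdac1, Chchd2 and Mrpl48 completed the 15, with CVs of 1.53 to 2.12. The choice of these genes depended on the CV, since on a log scale 9 of the 15 moved to a lower rank of spread. Over all core genes, 46 values exceeded 10 times the gene's own median, and 3 of them were of genes with a median of at least 100 RPKM.

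**Figure D5:**
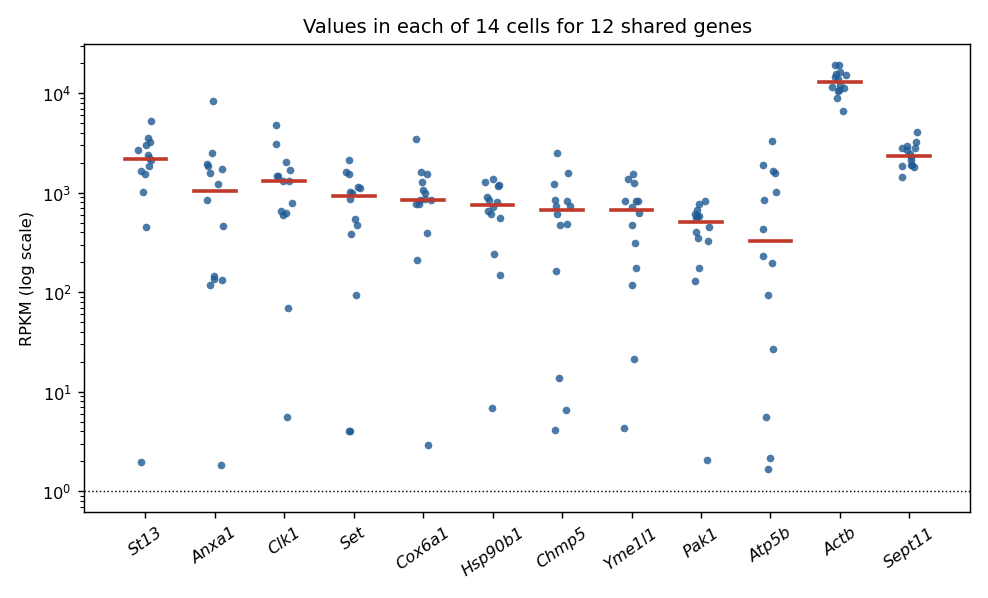
RPKM (y axis, log scale) of 12 core genes (x axis) in each of the 14 podocytes (points), with the median as a red line and the threshold of 1 RPKM as a dotted line. For 10 of the genes at least 1 cell lies under 10% of the median, as St13 does with 1.95 RPKM, while Actb and Sept11 have no such cell.

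Single cells in which an otherwise abundant gene was nearly missing were common. The 19 core genes with a median under 10 RPKM could have none, since every core value is at least 1 RPKM, and they are left out here. Of the 3822 values of the other 273 genes, 202, or 5.29%, lay under 10% of the gene's own median. Of these genes, 147 had no such cell, 70 had 1, 40 had 2, 12 had 3 and 4 had 4. The core threshold also bounds how low a value of the other genes can be. St13, a partner of the chaperone Hsp70 (ENSMUSG00000022403, chr15:81363669-81400077), had 1.95 RPKM from 21 reads in cell 9 against a median of 2200 RPKM and a highest value of 5285 RPKM in cell 3. Anxa1, a phospholipid-binding protein gene, had 1.81 RPKM in cell 7, a median of 1034 RPKM and 8290 RPKM in cell 13. Set had 3.99 RPKM in cell 12 against a median of 931 RPKM, Hsp90b1 had 6.79 RPKM in cell 9 against 757 RPKM, Chmp5 had 4.15 RPKM in cell 12 against 669 RPKM, and Yme1l1 had 4.34 RPKM in cell 15 against 670 RPKM. The kinase gene Pak1 was at least 130 RPKM in 13 cells and 2.05 RPKM in cell 7. The lowest value of 13 core genes rested on fewer than 10 reads. Among the 47 genes with a median of at least 1000 RPKM such values were rarer, 8 of 658, or 1.22%.

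The cells shared the low values unequally. Cell 12 held 32 of the 202 and cell 7 held 23, against 2 in cell 2. Likewise, cell 12 was the lowest of all cells for 44 core genes and cell 2 for 2. Cell 12 also had the fewest genes found (2371) and cell 2 the most (4082), while their read totals were 8087267 and 5873644. The Pearson correlation of log2(RPKM + 1) over core genes between a cell and the median of the others was 0.708 for cell 12 and 0.900 for cell 2, the ends of the range, and pairs of cells had 0.542 to 0.808 with a median of 0.674 over 91 pairs.

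Pairs of core genes did not vary together as a rule. The median Spearman correlation over the 14 cells was 0.002 over all 42486 pairs, with 33 pairs above 0.8 and 20 below -0.8. These correlations are descriptions of 14 cells that share an animal, and each value in a cell depends on that library. The strongest among named genes were Rps27rt and Rps27 (0.98), which share sequence, and mt-Atp8 and mt-Atp6 (0.92), which lie on the same mitochondrial transcript. Of the exonic bases of mt-Atp8, 21.1% also lie within another gene, against 6.46% for mt-Atp6. What made these pairs vary together was not tested. After them came Csnk1a1 and Malat1 (0.91), Sema3g and Mylk (0.89), mt-Nd1 and mt-Co3 (0.89), mt-Co1 and mt-Co3 (0.89), Gadd45a and mt-Nd1 (0.88), Myh9 and Rps27l (0.87), Iqgap2 and Dst (0.87), and Wt1 and Lgr4 (0.86). The lowest were Eef1a1 and Ifitm2 (-0.89), S100a11 and Sgip1 (-0.88), Slc39a1 and Nebl (-0.87), Parva and Nebl (-0.86), and Enpep and Rpl35 (-0.85). Of these genes, those with at least 20% of windows in another annotated transcript were Rpl35 (95.1%), Eef1a1 (60.6%), Ifitm2 (48.5%), S100a11 (41.1%) and Slc39a1 (21.8%). Within classes the median over pairs was highest for the mitochondrial genome (0.20), then GTPases (0.13) and ribosomal proteins (0.11), and 0.04 for the slit diaphragm class.

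The nearest genes of each podocyte marker were those with the highest Spearman correlation to it among all other core genes. Such picks are high by selection, and a link to a marker was not tested. For Nphs1 the highest was mt-Cytb (0.77), for Wt1 Lgr4 (0.86), Ptges3 (0.76) and Neat1 (0.74), and for Podxl Itgb1 (0.83), Calr (0.78) and Tob1 (0.66). For Synpo they were Wtap (0.67), Zfp207 (0.60) and Cox6c (0.56), and for Cdkn1c Selenow (0.56), Eef1a1 (0.55) and Dpysl2 (0.53). No gene was among the 3 nearest of more than 1 marker, and nothing particular to a marker is read from this. The order depended on the measure: the Pearson correlation of log2(RPKM + 1) with Wt1 was 0.52 for Lgr4, 0.56 for Ptges3 and 0.74 for Neat1.

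Promoters of core genes were read for 203 of the 292 genes, 258 promoters in all, from 250 bases before to 50 bases after the RefSeq start on GRCm38.p6. The 4 shown here belong to genes the results turn on: the highest protein coding gene, 2 genes above 1000 RPKM whose TATAAA lies just before the start, and the slit diaphragm marker. Capitals mark GGGCGG, the letters of a GC box, with CCGCCC for the same letters on the other strand, and TATAAA, the letters of a TATA box.
Sdc4, chr2:164443139-164443438, minus strand: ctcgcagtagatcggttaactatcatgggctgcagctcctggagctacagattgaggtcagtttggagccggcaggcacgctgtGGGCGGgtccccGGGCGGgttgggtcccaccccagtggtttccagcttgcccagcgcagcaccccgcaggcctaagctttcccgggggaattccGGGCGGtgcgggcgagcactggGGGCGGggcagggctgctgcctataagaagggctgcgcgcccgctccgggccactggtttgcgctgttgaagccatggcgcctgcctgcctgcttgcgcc
Srsf2, chr11:116853045-116853344, minus strand: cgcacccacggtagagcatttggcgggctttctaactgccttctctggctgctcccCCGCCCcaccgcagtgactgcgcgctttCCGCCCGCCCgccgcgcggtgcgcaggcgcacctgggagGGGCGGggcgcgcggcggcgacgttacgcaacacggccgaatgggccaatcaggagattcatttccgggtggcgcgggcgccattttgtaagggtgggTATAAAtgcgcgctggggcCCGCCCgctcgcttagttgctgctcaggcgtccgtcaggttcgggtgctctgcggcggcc
Anxa1, chr19:20390622-20390921, minus strand: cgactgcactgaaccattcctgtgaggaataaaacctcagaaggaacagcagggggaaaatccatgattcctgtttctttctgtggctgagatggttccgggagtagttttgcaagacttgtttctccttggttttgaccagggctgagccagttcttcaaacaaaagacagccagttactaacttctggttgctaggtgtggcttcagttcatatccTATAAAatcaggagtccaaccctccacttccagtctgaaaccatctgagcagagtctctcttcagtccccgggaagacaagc
Nphs1, chr7:30459808-30460107, plus strand: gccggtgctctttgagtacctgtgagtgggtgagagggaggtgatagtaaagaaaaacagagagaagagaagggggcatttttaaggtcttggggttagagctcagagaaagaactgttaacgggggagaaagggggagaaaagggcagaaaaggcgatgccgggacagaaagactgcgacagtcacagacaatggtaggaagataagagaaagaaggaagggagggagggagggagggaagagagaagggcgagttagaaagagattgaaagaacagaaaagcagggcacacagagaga

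The Sdc4 promoter had 22 CpG and 4 GGGCGG matches, all before the start. The Srsf2 promoter had 39 CpG, 5 matches to GGGCGG on either strand, 2 of them overlapping, and TATAAA 29 bases before the start. The Anxa1 promoter had 3 CpG, no GGGCGG and TATAAA 32 bases before the start. The Nphs1 promoter had 6 CpG and neither motif. The windows of Nphs1 and Sdc4 belong to RefSeq starts that lie inside the gene coordinates given above. Sequence before the outermost annotated start of either gene was not read.

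Core promoters had a median of 22 CpG, against 21 for 9174 promoters of genes found in at least 1 of the 14 cells and 7 for all 32851 promoters of the table. GGGCGG, searched on both strands, stood in 62.4% of core promoters, 62.6% of those of found genes and 35.7% of all promoters. TATAAA, searched likewise, stood in 11.6% of core promoters, 6.93% of those of found genes and 13.6% of all. In the 28 promoters of 26 core genes with a median of at least 1000 RPKM, TATAAA stood in 9, or 32.1%, and GGGCGG in 71.4%. With TATAAA on the promoter's own strand and its first base 40 to 20 bases before the start, a window chosen after the counts were seen, the shares were 10.7% of these 28 promoters (Anxa1, Sod1 and Srsf2), 2.71% of core promoters, 0.883% of those of found genes and 1.99% of all. The other motifs were searched on both strands too. The letters CCAAT stood in 36.8% of core promoters and 37.8% of those of found genes, and the E-box letters CACGTG in 10.1% and 10.3%. The forkhead letters TGTTTAC stood in 1.55% of core promoters and 2.69% of those of found genes, the homeodomain letters TAATTA in 2.33% and 2.68%, and the TEAD letters GGAATG in 14.3% and 11.7%. A match is a run of letters and not a shown binding site.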

How the data were processed

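The values used were RPKM for 39179 Ensembl genes in 20 single-cell libraries, deposited by the authors in 1 table. The submitters' processing notes name build GRCm38, HTSeq 0.6.1 and TopHat2 2.0.12, and per the labels' protocols cDNA was made on the C1 instrument. Program settings and the treatment of reads with several alignments are not stated in the sources used. A single blank value was set to 0, and values were not rescaled. The 14 cells, the core genes and the gene lists were chosen with earlier results of these data known, and the cells and genes were chosen by the values described, so no test was made.

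Read totals and the lengths behind RPKM were recovered from the steps between low values, with the scale set by 567 genes. They gave whole reads within 0.001 read for 13170 of the 13170 genes that had reads in 2 or more cells. On simulated data for 12000 genes, 20 of 20 totals were recovered, and genes simulated with a CV of 0.3 or 1.5 came out at a median of 0.286 or 1.38. Those CVs were taken over 20 simulated libraries and for genes of high mean level. They do not show how a CV over 14 cells, or of a gene of low level, comes out. Over 286 core genes in the annotation, the recovered length had a median of 60.0% of the longest transcript, so levels of genes with short annotated transcripts are raised. Symbols and coordinates were taken by Ensembl ID (GENCODE M21, GRCm38, counted from 1). Shared sequence is the share of 50-base windows of a gene's longest transcript that also occur, on either strand, in another gene's transcripts. It was at least 20% for 71 core genes and 0 for 101. With no strand information for the library, reads of overlapping genes cannot be told apart, and 16 core genes had at least 20% of exonic bases within another gene.

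Genes named were the 5 podocyte markers, the 20 core genes of highest median, the 15 with the smallest and the 15 with the largest CV, up to 5 of highest median per list and class, the 10 just inside and the 10 just outside the threshold, the 10 highest and 5 lowest correlated pairs and the 3 nearest genes of each marker; other genes named were picked after their values were seen. The 15 with the largest CV were picked with predicted genes, pseudogenes and genes without a symbol left out. Some genes are counted without their values being reported here. Python 3.11.15, pandas 2.3.3, numpy 2.4.6, SciPy 1.17.1 and matplotlib 3.10.9 were used. Alternatives were other thresholds of detection, rescaling, size factors, other lengths, log-scale spreads and leaving out cells.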

Additional observations from a re-analysis of the deposited data

How the results depend on the processing

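The number of core genes depended on the threshold. It was 972 with any value above 0, 187 at 5 RPKM, 164 at 10 RPKM and 540 when 13 of the 14 cells sufficed, against 292. It was 353 after rescaling each cell to a sum of 1000000, and 295 to 352 with each cell left out in turn, the highest without cell 12. A cell's summed RPKM was 542042 to 611232 before rescaling, so rescaling raised every value. The rescaled count and the rescaled median level below include this change of unit. The median core level of 225 RPKM became 381 RPKM after rescaling, 139 RPKM with the length of the longest transcript and 265 RPKM without predicted genes, pseudogenes and genes with near-identical copies, and was 206 to 233 RPKM with each cell left out. The median CV of 0.787 was 0.787 after rescaling or size factors, 0.775 for genes that averaged 50 RPKM or more and 0.772 to 0.804 with each cell left out. Counts of core members moved by over 1.5 times in 25 of 30 lists above 0 and in 10 of 30 at 5 RPKM. On a log scale, the rank of 9 of 30 named genes by spread moved, all of them among the 15 widest. For example, Cyb5r4 went from rank 290 to 175 and Chchd2 from 278 to 147, counted from the most even gene. Of 15 named pairs 7 moved by 0.1 or more with Pearson correlation, among them Wt1 and Lgr4 (0.52), and none after size factors. Of the values compared, only the correlations have a sign. None of the 15 named pairs, which were picked as the most extreme, changed sign. No paired analysis was possible because all cells form 1 group. Values near 1 RPKM can rest on few reads, so presence there is not firm. The lowest value rested on fewer than 10 reads for 13 core genes, while 51 core genes had a lowest value under 2 RPKM. Counting error is not the spread between animals, of which there was 1.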
